A study of Mus musculus with 2 samples.

Results

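The alpha-defensin genes of the mouse small intestine were followed through every annotated cell type of jejunal crypts from 375KO mice, a whole-body knockout of the microRNA miR-375. The 10 genes were chosen by name and are Defa3, Defa17, Defa21, Defa22, Defa24, Defa26, Gm14850, Gm14851, Gm7861 and AY761184, out of 27998 genes in the count matrices. All 10 were present and all 10 had counts. Crypts came from 2 male mice, each 12 months old, of a knockout line made by CRISPR/Cas9 editing. The strain was given as C57BL6/2J in the sample records and as B6 albino in the protocol. Per the study's methods the line was made in hybrid embryos of FVB and a B6 strain and then backcrossed to B6 albino. How far the 2 mice share 1 genetic background was not given. Each mouse gave 1 droplet library (10x Genomics, 3′ ends), called replicate 1 and replicate 2, so both libraries form 1 group. Wild-type libraries were not analysed here, and no value below measures an effect of losing miR-375.

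Alpha-defensins are small antimicrobial peptides that Paneth cells, the granular cells at the crypt base, store in secretory granules and release into the crypt lumen. Each is made as a precursor whose C-terminal part carries the cysteines that bridge the mature peptide, and in the mouse intestine the peptides of the 6-cysteine type are called cryptdins. A related group, the cryptdin-related sequences (CRS), has a similar signal and pro-region but a different, cysteine-rich C-terminal part. The genes lie in 1 crowded cluster and many of them are near copies of each other.

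All 10 genes lie on chromosome 8 (GRCm38/mm10, GENCODE M21) and each has 2 exons. GENCODE or RefSeq list Gm14850 as Defa37, Gm14851 as Defa38 and Gm7861 as Defa43. Defa3, Defa17, Defa21, Defa22, Defa24, Defa26 and Gm14850 are on the plus strand and encode 93 residues with 6 cysteines. Gm14851, Gm7861 and AY761184 are on the minus strand and encode 116 residues with 11 cysteines. The ends of the coding sequences are given next, from the first cysteine codon of the C-terminal part to the stop codon, because they separate these 2 types and show how alike some members are. They lie in exon 2, are written 5′ to 3′ on the coding strand, and have the cysteine codons in capitals.

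Defa24 (chr8:21735285-21735377, plus strand): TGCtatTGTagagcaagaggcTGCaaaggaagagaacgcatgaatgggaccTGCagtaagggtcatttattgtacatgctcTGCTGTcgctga
Defa17 (chr8:21656549-21656641, plus strand): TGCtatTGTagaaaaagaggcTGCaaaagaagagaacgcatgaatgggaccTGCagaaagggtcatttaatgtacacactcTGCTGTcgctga
Defa21 (chr8:21026331-21026423, plus strand): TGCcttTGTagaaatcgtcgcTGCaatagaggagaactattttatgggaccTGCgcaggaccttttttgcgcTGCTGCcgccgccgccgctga
Defa22 (chr8:21163063-21163155, plus strand): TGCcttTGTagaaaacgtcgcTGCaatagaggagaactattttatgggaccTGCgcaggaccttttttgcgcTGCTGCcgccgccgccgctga
Gm14850 (chr8:21566164-21566256, plus strand): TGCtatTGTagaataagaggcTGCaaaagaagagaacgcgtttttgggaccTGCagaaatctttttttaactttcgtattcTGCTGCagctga
AY761184 (chr8:21702628-21702786, minus strand): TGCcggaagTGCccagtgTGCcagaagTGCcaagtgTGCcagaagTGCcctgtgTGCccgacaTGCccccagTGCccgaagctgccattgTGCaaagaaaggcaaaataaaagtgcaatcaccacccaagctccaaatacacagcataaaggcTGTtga
Gm7861 (chr8:21593487-21593645, minus strand): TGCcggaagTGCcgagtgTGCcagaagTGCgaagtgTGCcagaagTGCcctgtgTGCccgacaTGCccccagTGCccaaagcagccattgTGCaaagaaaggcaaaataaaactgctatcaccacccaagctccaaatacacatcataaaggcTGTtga

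The stretch of Defa3 (chr8:21288191-21288283) is the same as that of Defa17, with 0 of 93 bases different, and their whole proteins are 100% identical. The stretches of Defa21 and Defa22 differ at 1 base, and their proteins are 97.8% identical. Defa24, the most abundant member below, shares 91.4% of its residues with Defa17. The CRS-type members share between 91.4% (Gm7861 and AY761184) and 94.0% (Gm14851 and AY761184) of their residues. Since a 3′ library reads transcript ends, the last 300 bases of each transcript were also searched for 90-base windows that occur in another gene. No window of Defa24 or AY761184 did so. The share was 6.16% for Defa26, 18.0% for Gm14851, and 38.9% for both Defa21 and Defa22. It was 86.7% for Defa3 and Defa17, which share with each other, 91.5% for Gm7861, which shares with Gm7849, and 100% for Gm14850, which shares with Defa5 and 3 other family genes. Counts of those 4 genes are therefore uncertain as to gene, since reads that match 2 genes equally cannot be assigned to either.

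The matrix of replicate 1 sums to 64305085 UMIs (unique molecular identifiers, each 1 captured molecule) over 7665 barcodes, and that of replicate 2 to 23675011 UMIs over 1251 barcodes. After the authors' filters 2082 and 1193 cells remained with an annotation, and these share 0 barcodes. Of these, 78 and 54 cells were annotated as Paneth, with a median of 44683 and 80817 UMIs per cell. All 5 Paneth markers in the matrices (Lyz1, Ang4, Mmp7, Mptx2 and Itln1) were highest in that type in both libraries. This is no separate check of the label, since the authors named clusters by scores of known cell type markers. The same held for 4 of 6 markers of transit-amplifying cells, 4 of 6 of secretory progenitors and 5 of 6 of stem cells. Levels are given as CPM, the UMIs of a gene per 1000000 UMIs summed over the cells of 1 type in 1 library, with exact Poisson 95% intervals that cover counting error only. A UMI counts a molecule by its 3′ end, so no scaling by transcript length was needed. The cell types were named by the authors from the same cells, so a level in Paneth cells against other types is a description and was not tested.

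In Paneth cells the 10 members together made up 54.9% of all UMIs. The share was 54.9% in replicate 1 (1929586 of 3515066 UMIs) and 54.9% in replicate 2 (2395220 of 4363692 UMIs), with a mean of 54.9% ± 0.00352 (SD, n = 2). It held in single cells as well. The share per Paneth cell ran from 38.9% through a median of 56.4% to 63.3% in replicate 1, and from 46.7% through 54.6% to 66.3% in replicate 2. Every member had at least 1 UMI in each of the 132 Paneth cells. Paneth cells made up 7.99% and 19.7% of the UMIs of kept cells, yet they held 99.2% and 99.5% of the member UMIs. Another 17 genes of the family are in the matrices, and with these the family took 71.8% and 78.1% of Paneth UMIs.

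Defa24, which encodes a cryptdin, was the most abundant gene of all in Paneth cells of both libraries. It stood at 357834 CPM (95% interval 357209 to 358460) in replicate 1 and 296842 CPM (296331 to 297354) in replicate 2, with a mean of 327338 ± 43128 CPM (SD, n = 2). About 1 UMI in 3 in a Paneth cell thus came from this gene. AY761184, the most abundant CRS-type member, came next with 71583 and 59337 CPM, and ranked 4th among all genes in both libraries. The values of these 2 members in the 2 libraries did not overlap with those of any other member.

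The cryptdin genes Defa21 and Defa22 and the CRS-type gene Gm14851 formed the next group. Defa22 had 37346 CPM in replicate 1 and 57320 CPM in replicate 2. Defa21 had 34833 and 53875 CPM. Gm14851 had 39576 and 54825 CPM. Their ranges over the libraries overlapped. Within each library Defa22 was above Defa21, while Gm14851 was the highest of these 3 members in replicate 1 and lay between the others in replicate 2.

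The cryptdin genes Defa26, Gm14850 and Defa17 followed at a lower level. Defa26 was steady, with 5152 CPM in replicate 1 and 5813 CPM in replicate 2. Gm14850 had 1230.4 and 8792 CPM. Defa17 had 922 and 8655 CPM. The value of Defa26 lay inside the range of Gm14850 and of Defa17 in both libraries, so Defa26 could not be ordered against them. Gm14850 was above Defa17 in each library. The lowest members within each library were the CRS-type gene Gm7861, with 192 CPM (178 to 207) and 2091 CPM (2049 to 2135), and the cryptdin gene Defa3, with 279 CPM (262 to 297) and 1347 CPM (1313 to 1382). Their ranges over the libraries overlapped with each other and with those of Gm14850 and Defa17.

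**Figure D1:**
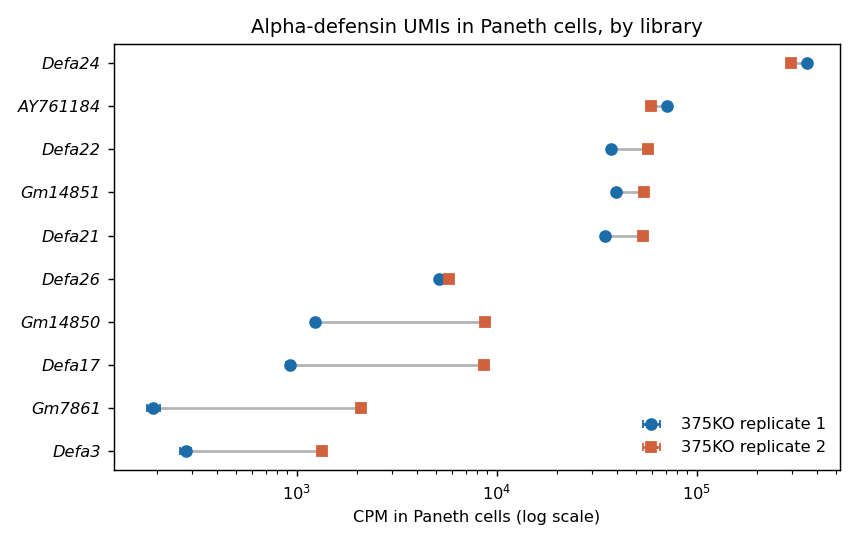
Level of each member in Paneth cells, in CPM on a log axis, with 1 point per library (circles for replicate 1, squares for replicate 2), exact Poisson 95% intervals as bars and a grey line joining the libraries. Defa24 lies at the right, from 296842 to 357834 CPM, and the longest lines belong to Gm7861, Defa17, Gm14850 and Defa3.

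The summed level, as a share of Paneth UMIs, was the same in both mice, with a ratio of replicate 2 to replicate 1 of 0.9999. With the UMIs outside the family as the total that ratio was 1.29, so the sameness holds for the share only. The make-up of the sum differed between the mice. With 1 library per mouse there is no test between them, and genes were counted as apart when they differed by at least 2-fold. Of the 368 genes that reached 50 CPM in Paneth cells of either library, 15.2% were at least 2-fold higher in replicate 2 and 11.1% at least 2-fold higher in replicate 1. Of the 10 members, 4 were higher in replicate 2 by that measure and 0 were higher in replicate 1. The 4 were Gm7861 (10.9-fold), Defa17 (9.39-fold), Gm14850 (7.15-fold) and Defa3 (4.83-fold). The other 6 lay between 0.829 for AY761184 and 1.55 for Defa21. With the UMIs outside the family as the total, the same 4 were past 2-fold, and Defa21 (1.99) and Defa22 (1.98) lay just under it. The ratio of Defa24 then turned from 0.830 to 1.07 and that of AY761184 from 0.829 to 1.07. At a limit of 1.5-fold, with all UMIs as the total, 6 members were apart.

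Among the member UMIs of Paneth cells, Defa24 held 65.2% in replicate 1 and 54.1% in replicate 2. AY761184 held 13.0% and 10.8%. Defa21 and Defa22 together with Gm14851 took up most of the difference, with 6.35%, 6.80% and 7.21% in replicate 1 against 9.82%, 10.4% and 9.99% in replicate 2. The 4 members that were far apart between the mice were all minor, and Gm14850, the largest of them, held 0.224% in replicate 1 and 1.60% in replicate 2. The difference in make-up was therefore spread over abundant members in small ratios and over rare members in large ones.

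The 4 members that differed by at least 2-fold were also the 4 whose transcript ends are mostly shared with another gene, from 86.7% to 100% of windows. The 6 others shared between 0% and 38.9%. Of the partners in that sharing outside the members, Defa5 was 12.5-fold and Gm7849 3.90-fold higher in replicate 2. The other partners of Gm14850 (Defa34, Defa35 and Defa36) are not in the matrices under these names. Whether they went the same way is not known. Among the 14 relatives that reached 50 CPM in Paneth cells, differences of at least 2-fold occurred both with and without such sharing. AY761185, with 0% of its windows shared, had 3951 CPM in Paneth cells of replicate 1 and 10.1 CPM in replicate 2, a 392-fold difference. Defa23 and Gm15315 had 100% of their windows shared and ratios of 1.05 and 1.12. Defa20, with 99.5% shared, was 13.1-fold higher in replicate 2. All 4 of these relatives that were at least 2-fold higher in replicate 2 (Defa20, Gm15308, Defa5 and Gm7849) had 99.5% to 100% of windows shared. The 3 that were higher in replicate 1 (AY761185, Gm15299 and Gm10104) had 0%, 16.1% and 30.3% shared. The part of read assignment in these differences was not tested.

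The same 4 members also stood apart between the libraries outside Paneth cells. The deposited matrices list an entry, with a value of 0 or above, for Defa17 in 11.7% of the other cells of replicate 1 and in 71.6% of those of replicate 2. For Gm14850 the shares were 13.3% and 81.8%. For Gm7861 they were 1.30% and 20.4%, and for Defa3 they were 2.74% and 20.4%. For the other 6 members the libraries were close, as for Defa26 with 19.0% and 19.6%, or Gm14851 with 63.9% and 60.3%. These cells come from the same libraries as the Paneth cells and are not a second measurement of the mice.

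Single Paneth cells differed in which members they carried. Defa24 was even from cell to cell, with a coefficient of variation of 18.4% in replicate 1 and 15.99% in replicate 2. Defa21 and Defa22 were the most uneven of the abundant members, with coefficients between 71.3% and 73.5% in the 2 libraries. Defa22 ran from 2839 CPM through a median of 30354 to 110528 CPM over the 78 Paneth cells of replicate 1, and from 1189 through 54295 to 128139 CPM over the 54 of replicate 2. Defa21 ran from 1171 through 28047 to 96477 CPM and from 1701 through 43649 to 120302 CPM. The lowest and the highest cell of a library thus lay far apart, whereas every cell held Defa24 at 184029 CPM or more.

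Defa21 and Defa22 varied together from cell to cell, with Spearman's rho of 0.80 over 78 cells and 0.90 over 54 cells. They share 38.9% of their end windows, so some reads of one may count for the other. Cells rich in Defa22 were poor in the abundant CRS-type members. Its rho with AY761184 was -0.73 in replicate 1 and -0.74 in replicate 2, and with Gm14851 it was -0.62 and -0.64. All of these values are shares of the same cell's UMIs, so a rise in one abundant gene lowers the others by construction, and rho is given as a description. The rho of Defa22 with the UMIs per cell was -0.17 in replicate 1 and 0.49 in replicate 2, and the part of depth was not tested.

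Beyond the members, summed Defa21 and Defa22 were set against the 92 genes that averaged 200 CPM or more over the Paneth cells of each library. The relatives Defa20 (rho of 0.78 and 0.68), Gm10104 (0.69 and 0.73), Gm15293 (0.68 and 0.74) and Gm15315 (0.67 and 0.61) went up with them. Among the members, Defa24 (-0.56 and -0.85) and Defa17 (-0.53 and -0.62) went down with AY761184 and Gm14851. Of the relatives, Gm15299 (-0.79 and -0.59), Gm15292 (-0.57 and -0.55) and Defa23 (-0.45 and -0.66) went down. Outside the family the lowest were Rnase1 (-0.59 and -0.76), which encodes a secreted ribonuclease, Reg4 (-0.67 and -0.67), a secreted lectin, and Clps (-0.38 and -0.81), the pancreatic lipase cofactor colipase. Guca2a, which encodes the gut hormone guanylin, was the highest outside the family by the mean of both (0.53 and 0.48), while Guca2b, for uroguanylin, was among the lowest (-0.21 and -0.49). These genes were chosen after their values were seen, and rho differed in sign between the mice for 58 of the 92 genes. That was so for 56 of 73 genes outside the family, such as Tpt1 (0.56 and -0.27) and Eef1a1 (0.56 and -0.18), for 1 of 10 relatives (Gm15284, 0.13 and -0.57) and for 1 of 9 members (Gm14850), Defa21 and Defa22 themselves included. Gm14851 was nearly missing from a few cells. In replicate 1, 2 of 78 cells held at most 39.8 CPM while the next lowest held 14293 CPM, and in replicate 2, 1 of 54 held 1801 CPM while the next held 16361 CPM.

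**Figure D2:**
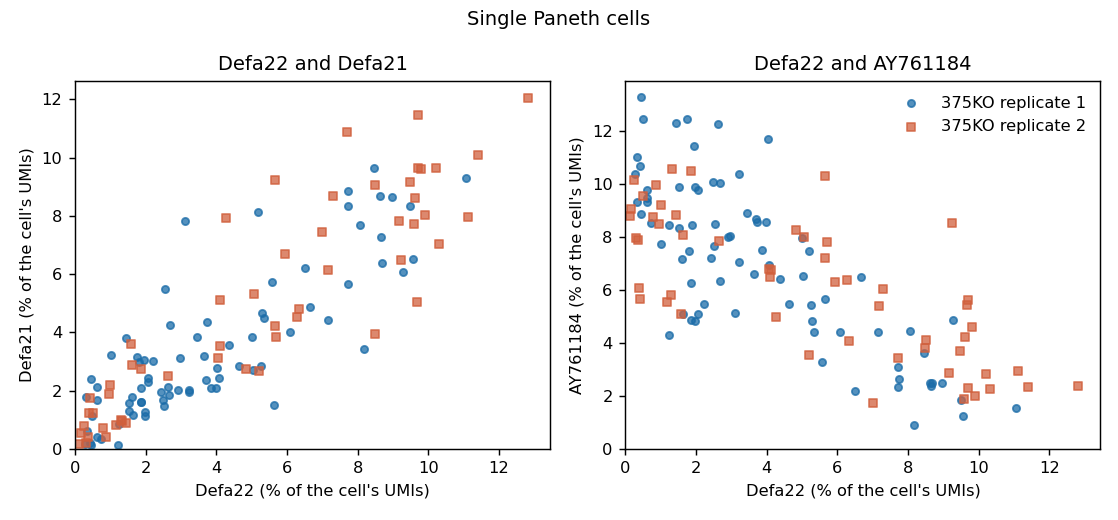
Each point is 1 Paneth cell (circles for the 78 cells of replicate 1, squares for the 54 of replicate 2), plotted as the percent of its UMIs from Defa22 on the x axis against Defa21 (left) or AY761184 (right). Points climb together on the left, with rho of 0.80 and 0.90, and descend on the right, with rho of -0.73 and -0.74.

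Upstream sequence was found in the RefSeq promoter table (GRCm38.p6) for 5 of the 10 members. The 250 bases before the start of Defa21 and of Defa22, the pair that varied together, are identical. Those of Gm14850 are 80.0% identical to them over all columns of the alignment. The windows are offset, since TATAAA stands 46 bases before the start of Gm14850 and 31 before the others. Their unmatched ends count as differences in that value. Gm14850 did not follow the pair from cell to cell (rho of 0.21 and -0.18 with their sum), and a link to upstream sequence was not tested. The windows of Defa22 and Gm14850 are shown 5′ to 3′ with every match to TATAAA and to CTTTGAT, searched on both strands, in capitals. CTTTGAT reads ATCAAAG on the other strand and holds the core letters bound by TCF/LEF factors, the DNA-binding partners of beta-catenin.

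Defa22 (chr8:21162027-21162276, plus strand): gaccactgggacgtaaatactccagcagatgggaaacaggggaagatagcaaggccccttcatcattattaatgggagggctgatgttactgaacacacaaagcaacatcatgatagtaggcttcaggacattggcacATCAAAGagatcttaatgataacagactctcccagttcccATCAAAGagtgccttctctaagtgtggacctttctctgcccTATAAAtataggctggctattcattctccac
Gm14850 (chr8:21565136-21565385, plus strand): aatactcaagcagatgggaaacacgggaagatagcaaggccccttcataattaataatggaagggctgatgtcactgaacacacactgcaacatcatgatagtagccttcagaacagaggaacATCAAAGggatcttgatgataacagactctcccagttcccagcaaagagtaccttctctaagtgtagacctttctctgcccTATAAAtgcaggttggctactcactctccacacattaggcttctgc

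TATAAA stands 31 bases before the start of Defa21 and Defa22, 46 before that of Gm14850 and 74 before those of Gm14851 and Gm7861. It thus occurs in all 5 promoters found, against 12.4% of 32851 RefSeq promoters of the same length. These 5 are not separate sequences, since the windows of Defa21 and Defa22 are identical and those of Gm14851 and Gm7861 are 97.2% identical. CTTTGAT occurs 2 times in Defa21 and in Defa22, 1 time in Gm14850, and 0 times in the windows of Gm14851 and Gm7861, against 3.21% of all promoters with at least 1. The 2 motifs do not overlap in these windows. A match describes the letters only.

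Outside Paneth cells the members were far lower. All 10 members were at least 10-fold higher in Paneth cells than in the unweighted mean of the 8 other epithelial types, in both libraries. Of the 368 genes at 50 CPM or more, 9.24% were. The summed members stood at 660 CPM in the mean of the other types in replicate 1 and 780.2 CPM in replicate 2, which is 832-fold and 704-fold below Paneth cells, with a mean of 768. That mean was 2816 without other cells over 1% members and 3074 with the UMIs outside the family as the total. Single members ranged in replicate 1 from 102-fold for Defa17 to 7236-fold for Gm14851. In replicate 2 they ranged from 110-fold for Defa17 upwards, and Defa21, Defa22, Gm14851 and AY761184 had 0 UMIs in all 8 types, so no fold is given for them.

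A count matrix in this sparse format ordinarily lists only the entries above 0. The deposited ones list 302472 entries of replicate 1 (2.56%) and 176897 of replicate 2 (4.19%) with the value 0. The study's methods name the removal of free RNA, the RNA that leaks from broken cells into all droplets, with SoupX, and do not say for which files. Its part in these zeros was not tested. The members were frequent among these entries, with 5 of the 10 members among the 10 genes with the most in replicate 1 and 4 in replicate 2. In Paneth cells themselves 0 member entries were listed at 0.

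Defa24 had an entry in 3142 of the 3143 cells outside the Paneth class. In replicate 2 it was listed at 0 in 382 of 382 enterocytes, 323 of 323 transit-amplifying (TA) cells, 117 of 117 stem cells, 38 of 38 tuft cells, 20 of 20 EEC (enteroendocrine cells), 19 of 19 secretory progenitors and 18 of 18 annotated intraepithelial lymphocytes (IEL). In replicate 1 it was listed at 0 in 922 of 931 enterocytes and 118 of 139 stem cells. Lyz1, which encodes the Paneth granule enzyme lysozyme, behaved alike, with an entry in 97.9% and 98.2% of the cells outside the Paneth class. Entries for these Paneth genes thus stood in nearly every cell, lymphocytes included. Counting each entry listed at 0 as 1 UMI left all 10 members at least 10-fold higher in Paneth cells, from 82.1-fold for Defa17 to 1345-fold for Gm14851, both in replicate 2. What these entries held before they were set to 0 is not known, so these folds set no lower limit.

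**Figure D3:**
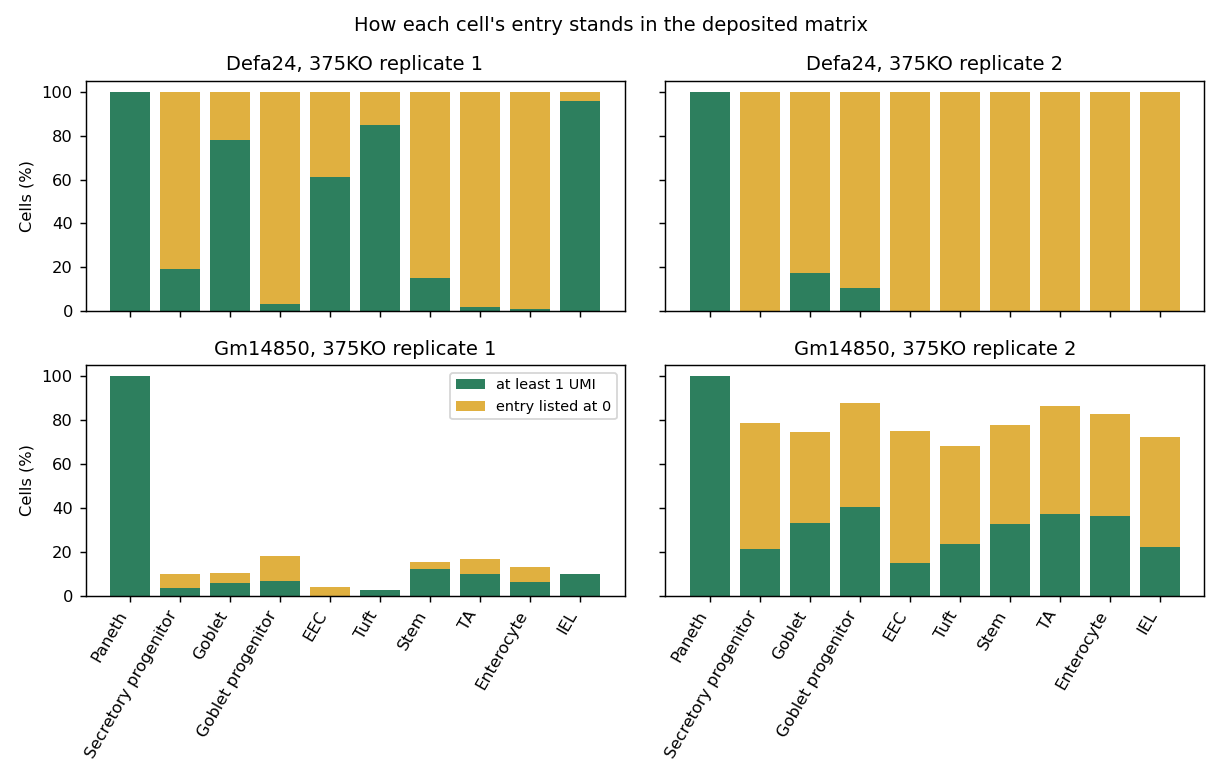
Percent of the cells of each annotated type (x axis) in which the deposited matrix holds at least 1 UMI of the gene (green) or an entry listed at 0 (yellow), for Defa24 (top) and Gm14850 (bottom) in each library. Defa24 has an entry in nearly every cell and is at 0 in most types of replicate 2, while Gm14850 has entries in 13.3% of cells outside the Paneth class in replicate 1 and 81.8% in replicate 2.

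The counts left outside Paneth cells differed between members. In secretory progenitors, EEC, tuft, stem, TA and enterocytes of replicate 2, summed, Defa24, AY761184, Defa21, Defa22, Gm14851 and Defa26 had 0 of 13670338 UMIs. For Defa24 this is a value listed at 0 in every one of these cells, and it sets no limit on what the library held there. The other 4 members had UMIs in these types. Gm14850 had 592 UMIs (43.3 CPM), Defa17 had 340 UMIs (24.9 CPM), Defa3 had 64 (4.68 CPM) and Gm7861 had 19 (1.39 CPM). Gm14850 and Defa17 thus made up 58.3% and 33.5% of the member UMIs there, against 1.60% and 1.58% in Paneth cells of the same library. In replicate 1 Defa24 held 63.9% of the member UMIs of the same 6 types, near its 65.2% in Paneth cells, while AY761184 held 1.07% against 13.0%. The order of members outside Paneth cells is therefore not the order in Paneth cells in either library.

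**Figure D4:**
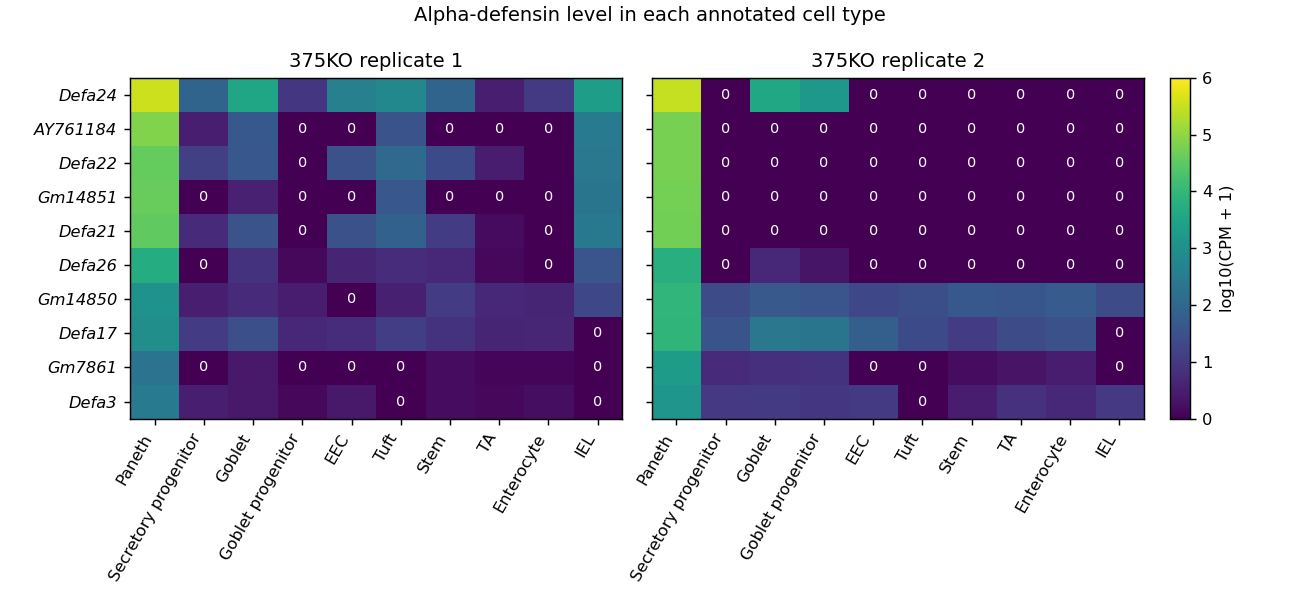
Level of the 10 members (rows, ordered by their mean in Paneth cells) in the 10 annotated types (columns) of each library, as log10(CPM + 1), with 0 printed where no UMI was counted. Replicate 2 shows 0 for the 6 members with the highest mean in most types outside Paneth cells, whereas Gm14850 is above 0 in all of them.

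Goblet cells, which secrete mucus, stood next to Paneth cells by summed members in both libraries, with 3605 CPM (95% interval 3544 to 3666) in replicate 1 and 3987 CPM (3905 to 4070) in replicate 2. Nearly all of it was Defa24, with 95.4% and 92.4% of the member UMIs. The level came from few cells. In replicate 1, 20 of 277 goblet cells had more than 1% of their UMIs from the members and held 74.5% of the member UMIs of that type, and in replicate 2, 10 of 138 cells held 89.96%. The highest goblet cell reached 18.9% in replicate 1 and 13.4% in replicate 2, well below the lowest Paneth cell. Without cells over 1% the level of goblet cells was 989 CPM in replicate 1 and 427 CPM in replicate 2, and in replicate 1 it then lay below that of the annotated lymphocytes (2965 CPM). The goblet cells over 1% had a higher median doublet score, as the authors computed it with scDblFinder, than the other goblet cells (0.0692 against 0.0195 in replicate 1, 0.319 against 0.0110 in replicate 2), and more Lyz1 (medians of 879 against 166 CPM, and 3708 against 0 CPM). Their goblet gene Muc2 was not lower (12530 against 7793 CPM, and 3866 against 3280 CPM). Whether they are droplets with 2 cells or cells that carry both sets of transcripts was not tested.

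Goblet progenitors were far apart between the libraries, with 14.1 CPM in replicate 1 and 1830 CPM in replicate 2, and 2 of the 84 cells of replicate 2 held 86.3% of the member UMIs of that type. Without cells above 1% the level there was 258 CPM. IEL, which are immune cells, stood at 3245 CPM (3030 to 3470) in replicate 1 and 31.1 CPM (12.5 to 64.0) in replicate 2. In replicate 1 the median IEL had 0.378% of its UMIs from the members and each of the 50 cells had at least 1 member UMI, at a median of 4109.5 UMIs per cell. Among the member UMIs of these IEL and of Paneth cells, Defa24 held 67.3% and 65.2%, Gm14851 6.46% and 7.21%, and AY761184 8.69% and 13.0%. Goblet cells of the same library had 0.0733% Gm14851 and 1.25% AY761184.

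Tuft cells had 900 CPM in replicate 1 and 48.2 in replicate 2, and EEC had 470 and 92.8 CPM. Secretory progenitors had 122 and 71.4 CPM, and stem cells had 138 and 56.1 CPM. Enterocytes, with 16.7 and 86.6 CPM, and TA cells, with 12.6 and 69.8 CPM, were higher in replicate 2, as goblet progenitors were. The order of types other than Paneth and goblet cells was thus not the same in the 2 libraries.

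In enterocytes of replicate 2 all 463 member UMIs came from Gm14850 (273), Defa17 (158), Defa3 (21) and Gm7861 (11). In those of replicate 1, Defa24 gave 179 of 324. The share of enterocytes with a UMI of any member was also higher in replicate 2. In replicate 1 it was 15.1% (12.9 to 17.6, exact binomial 95% interval) at a median of 16975 UMIs per cell, and in replicate 2 it was 53.4% (48.3 to 58.5) at a median of 13405. After thinning every cell to 5000 UMIs it was 4.62% and 31.4%. In IEL, which should lack these genes, it was 100% and 33.3% before thinning, and 39 of the 50 IEL of replicate 1 were too shallow to be thinned. In replicate 2 the thinned share in IEL was 22.2% (6.41 to 47.6), an interval that includes the share in enterocytes. The part of free RNA in these shares was not tested.

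The other secreted products of Paneth cells were read beside the members. Of the 10 granule genes in the matrices, 7 were at least 10-fold higher in Paneth cells in both libraries, beside 9.24% of all 368 genes. They were Lyz1 (91311 and 65733 CPM), Itln1, an intestinal lectin (49601 and 23202 CPM), Mptx2, a pentraxin (10675 and 9448 CPM), Ang4, an antimicrobial ribonuclease (10632 and 10488 CPM), Clps, Mmp7 and, at 29.6 and 61.9 CPM, Lyz2. Mmp7, the protease that cuts pro-cryptdins to their active form in the mouse, had 2719 and 1468 CPM. Reg3g and Reg3a were highest in enterocytes, and Mptx1 in goblet cells. Member UMIs per Lyz1 UMI came to 6.01 and 8.35 in Paneth cells. Of 11 regulators and sensors of the Paneth programme, 1 reached 50 CPM in Paneth cells (Xbp1, a regulator of secretory protein load, with 51.2 and 36.9 CPM) and 0 were 10-fold higher there. Bhlha15, a regulator of secretory cells, came nearest, at 6.28-fold and 2.76-fold. A CPM in Paneth cells is pressed down for every gene outside the family, since the family takes most of the UMIs.

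The genes outside the family whose pattern was most like that of the summed members over the 20 sums (10 types in 2 libraries) were Ang4 (Pearson's r of 0.92), Pnliprp2, a pancreatic-type lipase gene (0.90), Itln1 (0.90), Lyz1 (0.88) and Mptx2 (0.87), among 5720 genes compared on the log2(CPM + 1) scale. Of these, 4 were on the granule list. Of the 17 relatives, 14 reached 50 CPM in Paneth cells and all 14 of these were at least 10-fold higher there in both libraries. Those of high mean level included Gm15284 (87947 and 117915 CPM), Defa20 (3931 and 51359 CPM), Gm15308 (1935 and 15239.8 CPM) and Gm15299 (14563 and 927 CPM). Between the libraries 4 of the 14 were at least 2-fold higher in replicate 2 and 3 in replicate 1, beside 15.2% and 11.1% of all 368 genes.

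The authors' filters took out many barcodes with as large a member share as Paneth cells. In replicate 1, 121 barcodes that were not kept had a member share at or above that of the lowest kept Paneth cell, and in replicate 2, 18 did. Of these, 67 and 12 had fewer than 1500 detected genes.

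**Figure D5:**
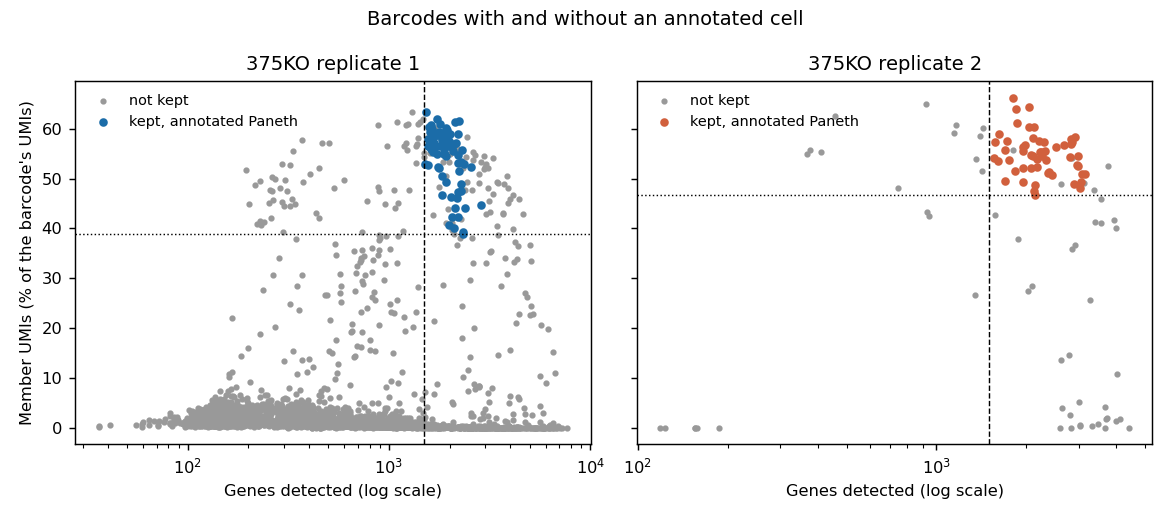
Percent of a barcode's UMIs from the 10 members against the number of genes detected (log axis), for barcodes not kept (grey) and cells annotated Paneth (coloured) in each library, with a dashed line at 1500 genes and a dotted line at the lowest Paneth share (38.9% and 46.7%). Kept Paneth cells, with medians of 1918 and 2156.5 genes, lie just right of the dashed line, and barcodes with as large a member share lie on both sides of it.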

How the data were processed

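Per the labels, reads were aligned to mm10 and counted with Cell Ranger 3.0.1, and the submitters' processing notes also name Seurat 3.2.1. The UMI counts, whole numbers per gene and barcode, were deposited as 1 sparse matrix for either library. Their methods name SoupX for removal of free RNA, without saying for which files. The authors called doublets with scDblFinder and deposited its score, removed cells under 1500 genes or over 25% mitochondrial reads, and deposited the mitochondrial percent and the annotation of each kept cell. The table of annotations has no barcodes and was joined by cell order through the authors' table of counts for all cells. UMI totals and gene numbers matched for 3275 of 3275 cells. The 2937 cell columns of other samples in that table, and 6059 rows of them in the doublet table, were not used. The sctransform table was not used.

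Counts were summed per type and library and divided by the total (CPM). Folds over other types used their unweighted mean, with a floor of 3 counts where these types held 0. Genes entered a count of folds at 50 CPM or more in Paneth cells of either library. Intervals are exact (Poisson for counts, Clopper-Pearson for shares) at 95% and cover counting error only. No test between types or mice was made, since the types were named from these cells and each mouse gave 1 library. The fold counts were tested on simulated data. Cells were thinned without replacement to 5000 UMIs. Doublets were those the authors had removed. The named genes were all 10 members, the 5 relatives of highest mean level (1 is not reported here), the granule and programme lists, and the 5 genes most like the summed members. The genes given along the Defa21 and Defa22 level, and AY761185, Defa23 and Gm15315, were chosen after their values were seen, as were 2 alternatives (counting each entry listed at 0 as 1 UMI, and leaving out other cells over 1% members). The members and lists were chosen with earlier results of these data known. Sequences came from GENCODE M21 and RefSeq. Python 3 with scipy and Biopython was used.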

Additional observations from a re-analysis of the deposited data

Results flagged for a closer look

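Barcodes that the authors did not keep held many member UMIs. In replicate 1, 5583 such barcodes had 11.4% of their UMIs from the members (95% interval 11.42 to 11.45), and in replicate 2, 58 such barcodes had 36.2% (36.1 to 36.3), both above the limit that a count of 0 allows. Most of it sat in few barcodes. In replicate 1, 121 of them had a member share at or above that of the lowest kept Paneth cell (38.9%) and held 72.6% of these UMIs, against 78 Paneth cells that were kept. In replicate 2, 18 did so (at 46.7% or more) and held 63.9%, against 54 kept. Of the 121, 67 had fewer than 1500 detected genes and 60 were called doublets, with 6 in both sets. Of the 18, 12 had fewer than 1500 genes and 7 were called doublets, with 1 in both. None of them, 0 in each library, had over 25% mitochondrial reads. Kept Paneth cells had a median of 1918 and 2156.5 genes, close above the limit of 1500. Among the member UMIs in these barcodes, set against those of the kept Paneth cells of the same library, Defa24 stood at 66.2% against 65.2% in replicate 1 and 59.8% against 54.1% in replicate 2, and Gm14850 at 0.218% against 0.224% and 1.43% against 1.60%. Defa22 stood at 6.13% against 6.80% and at 6.58% against 10.4%, and Defa21 at 5.63% against 6.35% and at 6.79% against 9.82%. The part of the gene limit and of the doublet calls in the number of Paneth cells was not tested.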

How the results depend on the processing

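Cells with at most 15% mitochondrial reads and the count table of the whole study left every summed value within the spread between the libraries, as did the level and share of each single member under the alternatives run. That spread is wide for members far apart between the libraries, as for Defa17 (mean 4788 CPM, SD 5468). Leaving out 1 of 2 libraries stays within it by construction. The mitochondrial limit and the count table of the whole study are no separate check of the Paneth values either. Paneth cells had median mitochondrial shares of 0.0907% and 0.185%, so the 15% limit left their values unchanged. The count table holds the same UMIs of the same cells. With thinned cells, levels and shares of single members were 0.913 to 1.03 times those reported. The member share of Paneth UMIs was 54.6% with thinned cells, with equal weight per cell and with entries listed at 0 counted as 1 UMI, and 54.9% without either library, and the first 2 of these gave a ratio between the libraries of 1.01. With UMIs outside the family as the total, the ratio was 1.29 and the fold over the other types 3074 (768 as reported). More genes then reached 50 CPM, 1393 against 368 as reported. Of the 1393 genes, 289 were 2-fold apart and 62 were 10-fold higher in Paneth cells, against 97 and 34 of the 368. Among those 2-fold apart, 57.7% were higher in replicate 2 as reported and 59.9% with that total. The mean in the other types was 720 CPM as reported (660 to 780.2 without a library, with folds of 704 to 832). Without other cells over 10% members it was 531 CPM (1039-fold), without those over 1% 233 CPM (2816-fold), and with entries listed at 0 counted 1009.7 CPM (550.1-fold). Genes 2-fold apart numbered 212 at 1.5-fold, 36 at 3-fold, 532 at a minimum of 10 CPM and 41 at 200 CPM. A change of the CPM minimum also changes how many genes are counted, so 532 and 41 are not out of 368. The members apart numbered 6 at 1.5-fold and 4 under the other alternatives, as reported. Those 10-fold higher in Paneth cells numbered 10 throughout. No paired analysis was possible because the libraries form 1 group. The level of a single member outside Paneth cells is limited by the entries set to 0, and differences between mice by 1 library each.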
